A study of Mus musculus with 2 samples.

Results

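The genes described here are 10 markers of simple and bile-duct epithelium, Krt19, Krt7, Krt8, Krt18, Epcam, Tspan8, Tff3, Clu, Sox9 and Cldn7, of the 31053 genes listed for each library. They were chosen by name and not by a measured value, but with earlier results of these data known. All 10 were found in both libraries. Their RNA was followed through liver cells of mice that lack the Rb family (Rb1, Rbl1 and Rbl2, by Cre recombination of floxed alleles), a model of hepatocellular carcinoma. All cells had been sorted for YFP, the mark of that recombination, so both stages carry the knockout and no group without it was analysed. Early lesions gave 1 library from a pool of 3 mice, and macroscopic lesions gave 1 library for which the labels give no number of mice. The mice were untreated. Neither their ages nor the way Cre was delivered is given in the sources used here.

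Droplet sequencing from the 3' end of RNA gives a count of unique molecular identifiers (UMIs) per gene and cell barcode, which is a count of captured molecules. Barcodes with at least 1000 UMIs were placed in classes by a few genes. A barcode was called hepatocyte where albumin (Alb) made up at least 0.5% of its UMIs. Hepatocyte barcodes were split by Malat1, a nuclear non-coding RNA, at 0.05% of UMIs. A barcode was called duct where Alb was under 0.5% and Cldn3, Plet1 and Dcdc2a together had at least 2 UMIs. A barcode was called Kupffer, after the resident macrophages of the liver, where Clec4f, Cd5l and Marco together had at least 3 UMIs. Levels are in CPM, the usual scaling of a gene's UMIs to all UMIs summed over a class.

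Keratins are intermediate filament proteins that assemble as pairs of a type I and a type II chain. Hepatocytes normally carry only the pair of Krt8 (type II) and Krt18 (type I), while cells of the bile ducts, cholangiocytes, add Krt7 (type II) and Krt19 (type I). Sox9, Epcam and other duct genes are also known from hepatocytes that take on duct features during injury and from progenitor-like liver tumour cells.

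Promoter sequence is shown for 4 of the genes. Krt8 and Krt18 are neighbours whose counts went up and down together across barcodes, and Epcam and Tspan8 are surface genes whose levels differed in opposite directions between the stages in hepatocyte barcodes with Apoa1, a split explained further on. Each line gives the RefSeq window upstream of the start of the gene (GRCm38.p6), 5' to 3' on the strand of the gene, without any base that lies in an annotated exon. Capitals mark a match to 1 of the 6 motifs searched on both strands, the TATA box with the letters TATAAA, the GC box with the letters GGGCGG, the AP-1 site written TGANTCA, the SOX core written ACAANG, the TEAD core written GGAATG and part of an HNF1 site written GTTAAT.
Krt8: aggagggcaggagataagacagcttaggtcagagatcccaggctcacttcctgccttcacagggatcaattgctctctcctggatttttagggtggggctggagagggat
Krt18: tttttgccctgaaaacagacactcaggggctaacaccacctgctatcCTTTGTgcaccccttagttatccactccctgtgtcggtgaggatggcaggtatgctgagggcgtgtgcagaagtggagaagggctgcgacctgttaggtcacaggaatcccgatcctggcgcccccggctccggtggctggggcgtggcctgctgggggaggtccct
Epcam: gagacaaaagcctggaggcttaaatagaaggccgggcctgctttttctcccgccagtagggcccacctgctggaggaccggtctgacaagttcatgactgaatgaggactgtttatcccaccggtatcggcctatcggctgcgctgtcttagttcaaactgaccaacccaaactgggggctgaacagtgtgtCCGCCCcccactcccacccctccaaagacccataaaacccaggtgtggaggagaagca
Tspan8: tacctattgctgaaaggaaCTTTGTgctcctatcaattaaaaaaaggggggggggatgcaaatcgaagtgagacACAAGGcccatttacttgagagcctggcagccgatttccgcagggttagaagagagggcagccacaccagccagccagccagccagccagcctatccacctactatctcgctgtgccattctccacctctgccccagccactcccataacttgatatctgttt
The Krt8 window (chr15:102004483-102004592, minus strand) had no match. The Krt18 window (chr15:102027966-102028179, plus strand) held 1 SOX core on the other strand, 203 to 198 bases before the start. A SOX core was in 32.7% of the 32851 RefSeq windows when all were cut alike. The Epcam window (chr17:87635729-87635978, plus strand) held 1 GC box on the other strand, 58 to 53 bases before the start, and 32.7% of windows did. The Tspan8 window (chr10:115817034-115817270, plus strand) held 2 SOX cores, at 231 to 226 and at 176 to 171 bases, and 35.1% of windows held at least 1. The RefSeq start of Tspan8 lies downstream of the GENCODE start, so this window is inside the longer GENCODE gene model, outside its exons. These matches describe the letters in the windows, and no binding was measured.

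The early library had 2620 barcodes of at least 1000 UMIs (12202299 UMIs, median 2946 per barcode) and the macroscopic library had 241 (7260252 UMIs, median 14223). No barcode sequence was shared between them. The stages differed in sex as read from the RNA, since Xist had 10348 early and 0 macroscopic UMIs while the Y-linked Eif2s3y had 4 and 370. Stage and sex therefore cannot be told apart. With 1 library per stage there was no test between stages and no replicate check, and cells are not replicates. Every interval is an exact 95% interval for counting error only (Poisson for a level, conditional binomial for a fold, Clopper-Pearson for a share).

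Hepatocyte barcodes with Malat1 numbered 63 in the early library (median 16074 UMIs) and 45 in the macroscopic library (median 107248). There were 103 early duct barcodes (median 10877 UMIs) and 1932 early Kupffer barcodes (median 2557). A further 58 macroscopic hepatocyte barcodes held little Malat1 (median 17791 UMIs), against 4 in the early library. The macroscopic library held only 3 barcodes that met the duct rule and 4 that met the Kupffer rule. Of the class markers that the rules did not use, the 12 cholangiocyte markers summed to 31330 CPM in the duct barcodes, with all 12 detected, and the 12 hepatocyte markers to 5343 CPM. Spp1 alone gave 27213 CPM of the cholangiocyte sum. The median marker was at 359 CPM in the cholangiocyte list and at 49.9 CPM in the hepatocyte list. Mesothelial cells, which also carry these keratins, had 5 listed markers that summed to 57.7 CPM there, with Upk1b and Lrrn4 at 0, and the 10 Kupffer markers summed to 89.0 CPM.

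The early hepatocyte class was not uniform. In 46 of its 63 barcodes the apolipoprotein gene Apoa1 had at least 3 UMIs (18 or more in each), and in the other 17 it had none. The cholangiocyte markers summed to 29933 CPM in the 17 barcodes without Apoa1 and to 1943 CPM in the 46 with it, where Cftr, Cd24a, Sctr and Ehf were at 0. As Spp1 can dominate such a sum, their medians are also given, 325 and 24.7 CPM. Hepatocyte markers summed to 8432 CPM and 50309 CPM in the same order, with medians of 211 and 3710 CPM. Their list includes Apoa1, at 0 and 6500 CPM by the split itself. The duct barcodes held 0.325 Apoa1 UMIs per 100 Alb UMIs (0.162 to 0.583) and the macroscopic hepatocyte barcodes 25.1 (24.8 to 25.4). The 17 barcodes held 0 and the 46 barcodes 28.7, a direction that the split by Apoa1 fixed. Of the 17, 13 met the gene rule for duct barcodes apart from Alb, and these 13 had at least 5000 UMIs each and held nearly all UMIs of the 10 genes among the 17. Stage values are therefore given both for the hepatocyte class as defined and for its barcodes with at least 3 Apoa1 UMIs, a split that was added after these values had been seen. In the macroscopic class it left 44 of 45 barcodes (median 109520 UMIs, against 18193 for the 46 early ones).

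**Figure D1:**
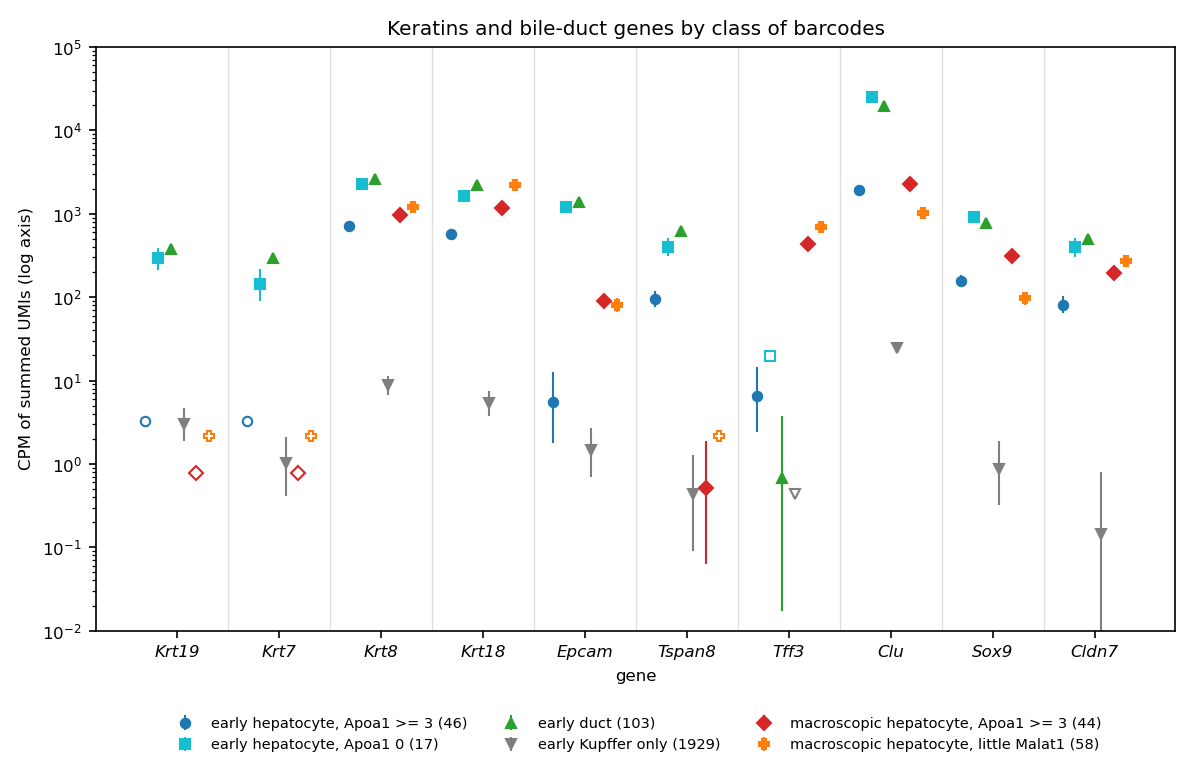
Level of each of the 10 genes (CPM of summed UMIs, log axis) by class, with the number of barcodes in parentheses and exact Poisson 95% intervals as bars. Open markers stand at the level of 3 UMIs for a class with 0 UMIs. Krt19 and Krt7 were at 0 in the early and macroscopic hepatocyte barcodes with Apoa1 and at 382 and 298 CPM in duct barcodes, while Tff3 was at 429 CPM in macroscopic hepatocyte barcodes and at 0.679 CPM in duct barcodes.

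Krt19 (ENSMUSG00000020911, chromosome 11, 100140810 to 100148665, minus strand in GENCODE M21, GRCm38) encodes the type I keratin most used to stain bile ducts. It had 562 UMIs in the 103 duct barcodes, or 382 CPM (351 to 415), and was found in 91 of them. None of the 46 early hepatocyte barcodes with Apoa1 held a Krt19 UMI, which allows a level of up to 3.30 CPM. The duct level was at least 116-fold higher. All 45 Krt19 UMIs of the early hepatocyte class lay in 10 of the 17 barcodes without Apoa1, where the level was 293 CPM (214 to 392). In the macroscopic hepatocyte class the gene had 4 UMIs, all in 1 barcode, and the other 44 barcodes had 0, which allows up to 0.780 CPM.

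Krt7 (ENSMUSG00000023039, chromosome 15, 101411043 to 101430313, plus strand), the type II duct keratin, had the same distribution over the classes. It had 439 UMIs in duct barcodes, or 298 CPM (271 to 327), in 85 of the 103. Both early and macroscopic hepatocyte barcodes with Apoa1 had 0 UMIs, and the duct level was at least 90.4-fold higher than the early one. Its 22 early hepatocyte UMIs fell in 8 barcodes without Apoa1 (143 CPM). Among duct barcodes Krt7 was uneven, with a median of 175 CPM per barcode and a highest value of 6256 CPM. Krt7 overlaps an antisense gene, Gm671, so its count is uncertain where strand was not used.

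A single macroscopic barcode with Alb at 0.536% of 24254 UMIs held every macroscopic Krt19 and Krt7 UMI (4 of each). It also had 33 Tspan8, 33 Epcam, 284 Clu and 600 Spp1 UMIs, 2 of Apoa1 and 0 of Tff3. By these genes it resembled the early duct barcodes and not the other macroscopic ones. For the class as defined, Krt19 was 41.0-fold lower (14.9 to 157) and Krt7 20.03-fold lower (6.80 to 80.0) in macroscopic than in early hepatocyte barcodes. Both differences came from barcodes that lacked Apoa1 or nearly so, since the barcodes with it had 0 UMIs of either gene at both stages.

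Krt8 and Krt18 form the keratin pair of hepatocytes and ducts alike. Krt8 (ENSMUSG00000049382, chromosome 15, 101996698 to 102004482, minus strand) was in 45 of the 46 early hepatocyte barcodes with Apoa1, at 707 CPM (653 to 764), and in 42 of the 44 macroscopic ones, at 956 CPM (926 to 988). The median per barcode was 559 CPM (highest 4267) in the early set and 787 CPM (highest 1835) in the macroscopic set, so the barcodes of the stages overlapped. Duct barcodes held 2611 CPM, 3.69-fold more than the early hepatocyte barcodes with Apoa1. Krt8 was found in all 103 duct barcodes. A Krt8 pseudogene and the antisense gene Gm36026 make the assignment of some reads uncertain.

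Krt18 (ENSMUSG00000023043, chromosome 15, 102028180 to 102032027, plus strand) starts 23697 bases from the Krt8 gene. It was in 45 of 46 early hepatocyte barcodes with Apoa1 at 579 CPM (531 to 631) and in 43 of 44 macroscopic ones at 1175 CPM (1141 to 1210). The macroscopic level was 2.03-fold higher (1.85 to 2.22), while that of Krt8 was 1.35-fold higher. In the class as defined Krt18 was 1.61-fold higher (1.49 to 1.74), under the 2-fold limit, and Krt8 1.03-fold higher (0.960 to 1.11). Duct barcodes held 2218 CPM, 3.83-fold above the early hepatocyte barcodes with Apoa1.

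The number of Krt18 UMIs per Krt8 UMI was below 1 in the early classes and above 1 in the macroscopic ones. It was 0.820 (0.729 to 0.921) in early hepatocyte barcodes with Apoa1, 0.849 (0.810 to 0.890) in duct barcodes and 0.607 in barcodes that met only the Kupffer rule. The macroscopic hepatocyte barcodes with Apoa1 had 1.23 (1.18 to 1.28). Those with little Malat1 had 1.88 (1.772 to 1.998), and macroscopic barcodes outside every class had 2.72 (2.41 to 3.07). The 3 macroscopic barcodes of the duct rule had 1.05 (0.872 to 1.26), an interval that includes 1. The early hepatocyte barcodes had a ratio close to that of the early duct barcodes, whose interval overlapped theirs. A ratio of UMIs of a pair of genes also depends on how well each 3' end is captured, so only its differences between classes are read here.

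**Figure D2:**
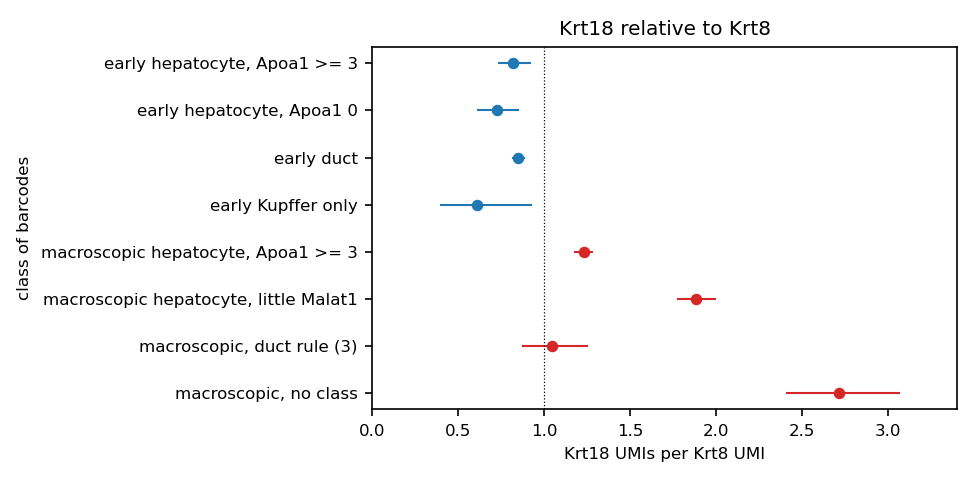
Krt18 UMIs per Krt8 UMI in 8 classes of barcodes (blue early library, red macroscopic library), with exact 95% intervals for counting error and a dotted line at 1. The early classes lie at 0.607 to 0.849 and the macroscopic ones at 1.05 to 2.72.

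Epcam (ENSMUSG00000045394, chromosome 17, 87635979 to 87651129, plus strand) encodes an epithelial adhesion molecule of ducts and progenitor cells. It was abundant in early duct barcodes and almost absent from early hepatocyte barcodes with Apoa1. Duct barcodes had 1374 CPM (1315 to 1436), in 102 of 103. Only 3 of the 46 early hepatocyte barcodes with Apoa1 held any, with 5 UMIs in all or 5.50 CPM (1.78 to 12.8), and the duct level was 250-fold higher (107 to 771). In the macroscopic library 32 of the 44 hepatocyte barcodes with Apoa1 held Epcam, at 90.4 CPM (81.2 to 100).

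Macroscopic hepatocyte barcodes with Apoa1 thus had 16.5-fold more Epcam (6.98 to 51.0) than early ones. This fold, like the 250-fold one, rests on 5 early UMIs that were not told apart from the level in Kupffer barcodes (1.45 CPM, 0.695 to 2.66), so its size is uncertain. Depth differed between these sets, and with every barcode thinned to 5000 UMIs the share with Epcam was 2.22% of 45 early and 28.2% of 39 macroscopic barcodes. For the class as defined the direction was opposite, with 180 CPM early and 98.4 CPM macroscopic, 1.83-fold lower (1.53 to 2.18). Of the 191 early UMIs, 186 were in barcodes without Apoa1. The highest Epcam level in any macroscopic barcode with Apoa1 was 383 CPM, below the median of the duct barcodes (1224 CPM).

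Cldn7 (ENSMUSG00000018569, chromosome 11, 69964779 to 69967885, plus strand), a claudin of epithelial junctions, was at 81.4 CPM (63.9 to 102) in early and 196 CPM (183 to 211) in macroscopic hepatocyte barcodes with Apoa1. The latter was 2.41-fold higher (1.90 to 3.11), and 1.56-fold higher in the class as defined, under the 2-fold limit. It was found in 27 of 46 and 36 of 44 barcodes. Duct barcodes held 492 CPM, 6.04-fold above the early hepatocyte barcodes with Apoa1. Both Epcam and Cldn7 were thus higher in the macroscopic hepatocyte barcodes with Apoa1 but remained below the duct level.

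Tspan8 (ENSMUSG00000034127, chromosome 10, 115816832 to 115849893, plus strand), a tetraspanin of epithelial surfaces, differed in the other direction. It was in 16 of 46 early hepatocyte barcodes with Apoa1, with 87 UMIs or 95.6 CPM (76.6 to 118), although 43 of these UMIs came from 3 barcodes. In the macroscopic library 1 of 44 barcodes held it, with 2 UMIs. The macroscopic level was 184-fold lower (49.4 to 1544). After thinning to 5000 UMIs, 9 of 45 early barcodes and 0 of 39 macroscopic barcodes held it. The early hepatocyte barcodes with Tspan8 reached 1106 CPM, inside the range of the duct barcodes (75 of 103 with a UMI, 618 CPM, highest 3949). The antisense gene 4930422I22Rik overlaps Tspan8.

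Of these 2 surface genes, early hepatocyte barcodes with Apoa1 held mostly Tspan8 (16 barcodes, against 3 with Epcam) and macroscopic ones mostly Epcam (32 barcodes, against 1 with Tspan8). In the class as defined Tspan8 was 140 CPM early and 9.04 CPM macroscopic, 15.5-fold lower (10.7 to 23.1), and 33 of the 35 macroscopic UMIs lay in the duct-like barcode described above.

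**Figure D3:**
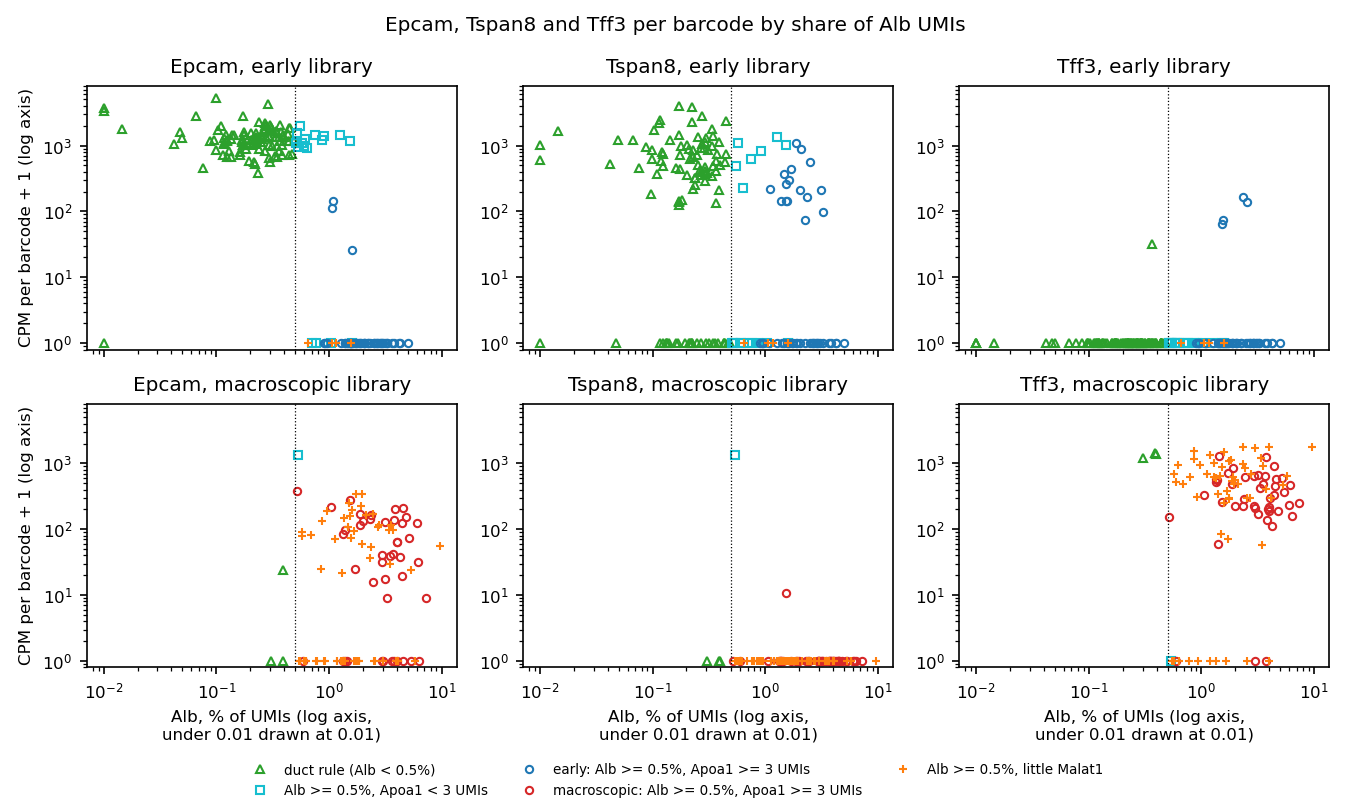
Epcam, Tspan8 and Tff3 in each barcode (CPM + 1, log axis) against the share of Alb in its UMIs (log axis), early library above and macroscopic below, with a dotted line at 0.5% Alb. In the macroscopic library 32 of 44 hepatocyte barcodes with Apoa1 held Epcam and 41 held Tff3, while in the early library 3 and 4 of 46 did and Tspan8 was in 16.

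Tff3 (ENSMUSG00000024029, chromosome 17, 31125306 to 31129646, minus strand), a small secreted trefoil peptide of mucosal epithelia, is often listed with duct genes but was almost absent from the duct barcodes here. The 103 duct barcodes held 1 UMI (0.679 CPM), and the 17 early barcodes without Apoa1 held 0. Early hepatocyte barcodes with Apoa1 held 6 UMIs in 4 barcodes, or 6.60 CPM (2.42 to 14.4), and each of these 4 also held Tspan8. Macroscopic hepatocyte barcodes with Apoa1 held 1651 UMIs in 41 of 44 barcodes, or 429 CPM (409 to 450), with a median of 310 CPM and a highest value of 1311 CPM per barcode. The level was 65.0-fold higher (29.8 to 177) than in early ones, and 75.6-fold higher (34.6 to 206) in the class as defined. With barcodes thinned to 5000 UMIs the shares were 79.5% of 39 macroscopic and 2.22% of 45 early barcodes.

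Macroscopic barcodes of other kinds show how much Tff3 lay outside the hepatocyte class. In the 79 macroscopic barcodes with Malat1 that met no class rule, where the endothelial gene Pecam1 and the leukocyte gene Ptprc had 397 and 358 UMIs, Tff3 was at 10.3 CPM, in 5 of 79 barcodes (median 11905 UMIs). The 52 such barcodes with little Malat1 held more, 282 UMIs or 539 CPM, in 31 barcodes. The 4 macroscopic Kupffer barcodes had 0. Each of the 3 macroscopic barcodes of the duct rule held Tff3, at 1214, 1377 and 1459 CPM, and together they held 730 Apoa1 UMIs, 0 of Krt19, Krt7 and Tspan8 and 1 of Epcam. These 3 barcodes met the duct rule by Cldn3 (16 UMIs) and lacked the duct keratins.

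Clu (ENSMUSG00000022037, chromosome 14, 65968483 to 65981547, plus strand), which encodes the secreted chaperone clusterin, was the most abundant of the 10 genes in duct barcodes. It was in all 103, at 19678 CPM, with 2353 CPM in the lowest barcode and 54358 CPM in the highest. All 46 early hepatocyte barcodes with Apoa1 held it, at 1930 CPM (1841 to 2023), and the duct level was 10.2-fold higher. The highest of these hepatocyte barcodes (6189 CPM) lay within the duct range. Macroscopic hepatocyte barcodes with Apoa1 had 2287 CPM, 1.18-fold more (1.13 to 1.25). In the class as defined the early level was 5308 CPM and the macroscopic one 2346 CPM, 2.26-fold lower (2.19 to 2.34), so the direction of Clu turned with the 17 barcodes without Apoa1 (25295 CPM).

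Sox9 (ENSMUSG00000000567, chromosome 11, 112782224 to 112787760, plus strand) encodes the transcription factor of duct and progenitor cells. It was in 42 of 46 early hepatocyte barcodes with Apoa1, at 158 CPM (134 to 186), and in 37 of 44 macroscopic ones, at 310 CPM (293 to 328). The macroscopic level was 1.96-fold higher (1.65 to 2.34). In the class as defined it was only 1.19-fold higher, and its log2 fold turned from 0.24 to -0.80 when barcodes were thinned to 1000 UMIs. Duct barcodes held 771 CPM (727 to 818) in 101 of 103, 4.87-fold above the early hepatocyte barcodes with Apoa1. After thinning to 5000 UMIs the shares were 46.7% in early and 74.4% in macroscopic hepatocyte barcodes with Apoa1, and 91.2% in duct barcodes.

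Counted over the members, a gene was measured where it had at least 10 CPM in 1 of the sums and at least 20 UMIs in both sums added together, and called where the fold was at least 2. Between stages in the class as defined, all 10 were measured and 1 was higher in macroscopic barcodes (Tff3), against 10.1% of the 9173 genes measured. There were 4 lower (Krt19, Krt7, Tspan8 and Clu), against 14.8%. The median log2 fold of the 10 was -0.41 and that of all measured genes -0.13. In barcodes with Apoa1, 8 members were measured, 4 were higher (Tff3, Epcam, Cldn7 and Krt18) against 12.0% of 8908 genes, and 1 was lower (Tspan8) against 12.6%. Their median log2 fold was 0.99, and that of all genes -0.05.

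Duct over early hepatocyte barcodes, 9 members were measured and all 9 were higher, against 23.3% of 10045 genes higher and 10.2% lower. The folds ran from 2.81 for Krt8 and 2.88 for Sox9 to 9.02 for Krt19 (6.65 to 12.5) and 14.4 for Krt7 (9.40 to 23.2). Against the hepatocyte barcodes with Apoa1, 9 of 9 were again higher, beside 29.0% of 9962 genes, with a median log2 fold of 2.69 against 0.46. Tff3 was not measured in either. The duct rule used Cldn3, Plet1 and Dcdc2a and none of the members, but genes of 1 cell type are not independent of each other. The members were also chosen with earlier results of these data known.

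**Figure D4:**
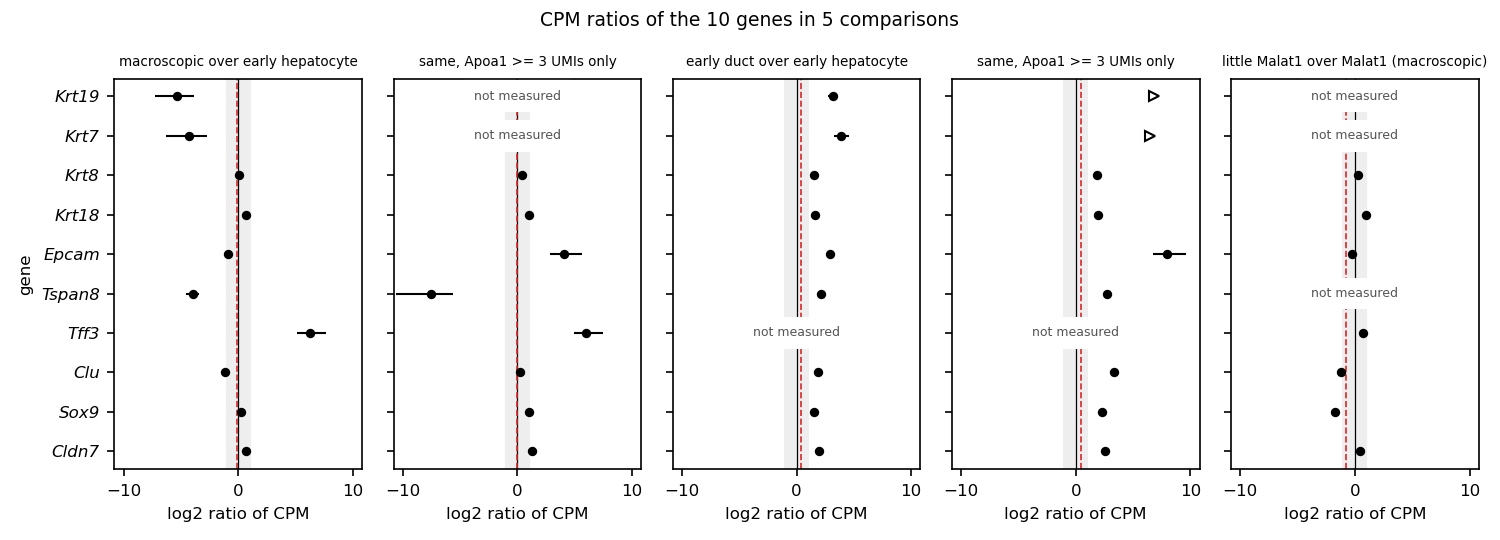
Log2 ratio of CPM for each gene in 5 comparisons, with exact 95% intervals for counting error as bars, the grey band marking less than a 2-fold difference and the red dashed line the median of all measured genes. Open triangles are lower bounds against 3 counts. In the stage comparison with Apoa1, Tff3 is 65.0-fold higher and Tspan8 184-fold lower in macroscopic barcodes, and 9 of 9 measured genes are higher in duct barcodes.

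Barcodes on either side of the 0.5% Alb limit had like levels of the duct genes. The 8 duct barcodes with 0.4% to 0.5% Alb had 1189 CPM of Epcam and 312 CPM of Krt19. The 5 hepatocyte barcodes between 0.5% and 0.6% had 1297 and 208 CPM. The duct barcodes had a median of 0.225% Alb, and their Alb came with 2508 CPM of the transport protein gene Ttr but with only 11 Apoa1 UMIs.

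In Kupffer barcodes, which should lack these genes, the levels were low. The 1929 early barcodes that met only the Kupffer rule had 24.8 CPM of Clu (156 barcodes), 8.84 of Krt8 (55 barcodes), 5.36 of Krt18 and 1.45 of Epcam, and Tff3 was at 0. Their median depth was 2556 UMIs. Of the 21 Krt19 UMIs in this class, all lay in 1 barcode of 19082 UMIs that also had 102 C1qa and 62 Vsig4 UMIs, both macrophage genes, and 0 Krt8 and 0 Epcam. At 5000 UMIs per barcode 2.06% of 388 Kupffer barcodes held Krt8 and 8.51% held Clu, against 88.9% and 100% of 45 early hepatocyte barcodes with Apoa1. The Epcam share of those hepatocyte barcodes (1 of 45) was close to that of the Kupffer barcodes (0 of 388), so expression of Epcam in them is not read from these 5 UMIs.

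Tspan8 in early hepatocyte barcodes lay above this background, in 9 of 45 barcodes at 5000 UMIs against 1 of 388 Kupffer barcodes. For the full class of 1932 the levels were higher (Clu 139 CPM, Epcam 7.49 CPM), because 1 barcode of 29173 UMIs met both the duct and the Kupffer rule with 761 Clu, 42 Epcam and 3 Clec4f UMIs and 0 of C1qa and C1qb. Duct over all Kupffer barcodes, 9 of 9 measured members were higher, against 37.8% of 10411 genes higher and 15.6% lower, and the folds lay between 94.7 (Krt19) and 193 (Krt18). With barcodes of more than 1 class left out they were higher, from a log2 fold of 6.98 for Krt19 to 9.89 for Epcam, 10.47 for Tspan8 and 11.72 for Cldn7.

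Duct barcodes carried most of the set at once. The median number of members with at least 1 UMI was 9 of 10 per duct barcode (4 to 10), 5 (3 to 7) in early hepatocyte barcodes with Apoa1, 7 (0 to 9) in the macroscopic hepatocyte class and 0 in Kupffer barcodes, where 1677 of 1932 had none. Thinned to 1000 UMIs the medians were 5 in duct barcodes and 2 in the hepatocyte classes of both stages, so the difference between the stages in this number was not seen at equal depth.

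Krt19 and Krt7 were found together in 75 of 103 duct barcodes (91 and 85 held each), and Krt19 and Tspan8 in 71. Among the 102 duct barcodes with at least 5000 UMIs, thinned to that depth, Spearman's rank correlation was 0.65 for Krt8 with Krt18, 0.30 for Krt19 with Tspan8 and -0.02 for Krt19 with Krt7. The median over the 36 pairs was -0.02 (range -0.30 to 0.65). Apart from the Krt8 and Krt18 pair, most pairs of thinned counts thus had little rank correlation among duct barcodes. At 5000 UMIs a gene such as Krt19 (382 CPM) has few UMIs per barcode, and counting error then draws the correlation towards 0. Whether the levels themselves are related cannot be read from these values. The points are barcodes of 1 library, so these are descriptions.

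Duct barcodes without Tspan8 held less Krt19. The 75 with Tspan8 (median 11635 UMIs) had 442 CPM of Krt19 and 271 CPM of Krt7, and the 28 without it (median 10498.5 UMIs) had 193 and 382 CPM. The barcode with most Krt7 (66 of the 439 UMIs) was among the 28, and without it the Krt7 level of the other 27 was 204 CPM, so whether it is above or below that of the 75 rests on that barcode. Clu was at 19751 and 19453 CPM and did not separate them.

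In hepatocyte barcodes Krt8 and Krt18 again varied together. Spearman's rank correlation was 0.64 over 45 early barcodes with Apoa1, 0.53 over 40 macroscopic barcodes and 0.71 over 55 macroscopic barcodes with little Malat1. Krt18 with Clu was 0.68 in the early barcodes with Apoa1, the highest of the 10 pairs there, and -0.30 in duct barcodes. Krt18 with Tff3 was -0.52 in macroscopic hepatocyte barcodes with Malat1 and 0.30 in those with little Malat1. Epcam and Tff3 were found together in 32 macroscopic barcodes, of 33 with Epcam and 41 with Tff3.

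**Figure D5:**
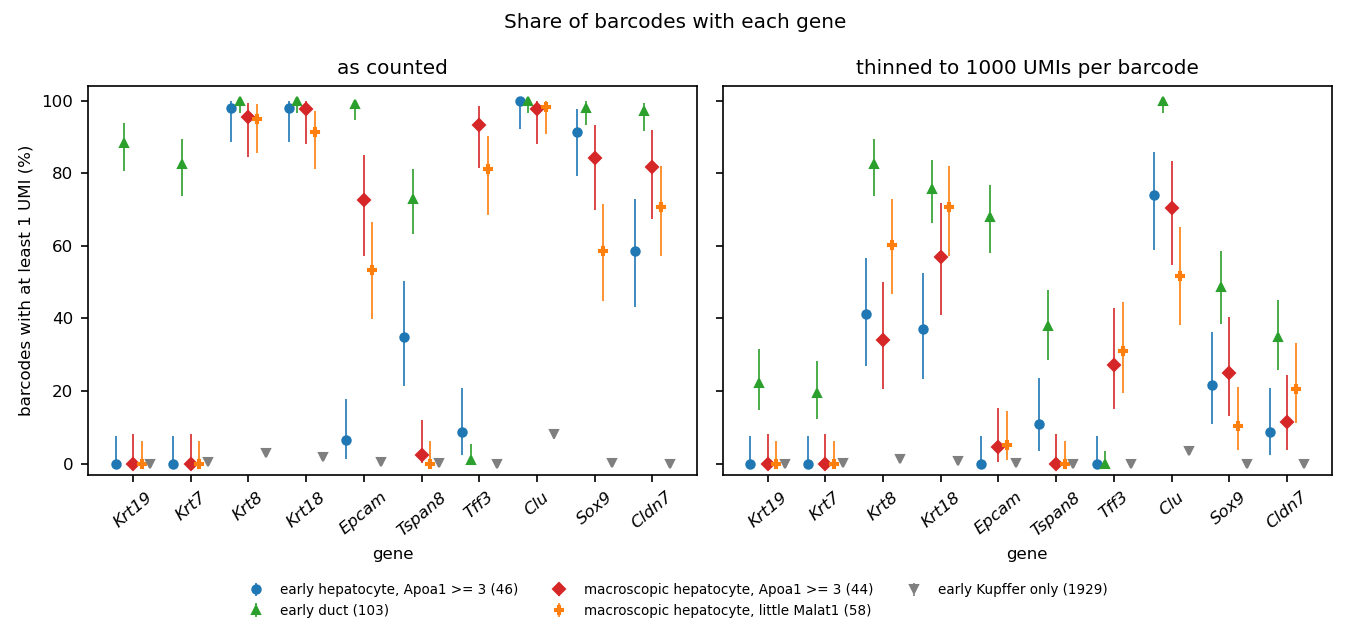
Share of barcodes with at least 1 UMI of each gene (percent, exact 95% intervals), as counted on the left and with every barcode thinned to 1000 UMIs on the right, in 5 classes with their number of barcodes in parentheses. As counted, Epcam is in 72.7% and Tff3 in 93.2% of macroscopic hepatocyte barcodes with Apoa1, and at 1000 UMIs in 4.55% and 27.3%, while duct barcodes stay at 68.0% for Epcam.

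The 58 macroscopic hepatocyte barcodes with little Malat1 held 7 of the 10 genes. Krt18 was at 2241 CPM (2163 to 2320), Krt8 at 1191 CPM and Tff3 at 697 CPM (654 to 742), found in 53, 55 and 47 barcodes. Epcam was at 80.9 CPM, in 31 barcodes. Krt19, Krt7 and Tspan8 had 0 UMIs, which allows up to 2.15 CPM. Mitochondrial RNA was 0.220% of UMIs in the median barcode here and 7.59% where Malat1 was present, while over the summed UMIs it was 7.34% and 7.99%.

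Relative to the barcodes with Malat1, 7 members were measured in those with little Malat1. None was higher by 2-fold, against 1.66% of 8430 genes, and 2 were lower, Clu (2.31-fold) and Sox9 (3.29-fold), against 46.2%. Krt18 was 1.90-fold, Tff3 1.63-fold, Cldn7 1.36-fold and Krt8 1.24-fold higher, and Epcam 1.22-fold lower (0.984 to 1.51). The median log2 fold of all genes was -0.81 here, and that of the members 0.31. Without mitochondrial UMIs in the totals the log2 folds hardly changed (Krt18 0.92, Tff3 0.70, Clu -1.22 and Sox9 -1.73). This outcome was fixed by the like shares of mitochondrial UMIs in the summed UMIs, 7.34% with little Malat1 and 7.99% with Malat1. Per barcode the share ran from 0% to 94.1% in those with little Malat1 (median 0.220%). Whether the folds depend on mitochondrial content per barcode cannot be read from this step. Scaled to the median of ratios, Krt18 was 3.28-fold, Tff3 2.82-fold, Cldn7 2.34-fold and Krt8 2.14-fold higher, while Clu (1.34-fold) and Sox9 (1.91-fold) stayed lower and Epcam was 1.42-fold higher. The direction of Epcam thus depends on the scaling.

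Other genes of the duct epithelium were counted from 6 lists of 84 genes, which hold none of the 10 members. Of these, 81 were counted, and Cldn3, Plet1 and Dcdc2a were left out because they define the duct class. Duct over early hepatocyte barcodes, 47 of the 74 that were measured were at least 2-fold higher, against 23.3% of all measured genes. At least 2-fold lower were 4, against 10.2%, and the median log2 fold was 1.52 (all genes 0.39). Of the list of hepatocyte secretory and transport genes, 13 of 13 measured genes were lower. Against hepatocyte barcodes with Apoa1, 53 of 72 genes of the duct lists were higher, beside 29.0% of all measured genes.

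By role, adhesion and surface genes had the highest count, with 12 of 14 higher (Cd24a 10.7-fold, the integrins Itgb4 7.94-fold and Itga3 6.20-fold, and the protease inhibitor Spint1 6.14-fold). Of 13 transcription factors 9 were higher, among them Klf5 (18.2-fold), Ehf (13.04-fold), the Notch target Hes1 (10.9-fold) and Sox4 (5.65-fold). Tight junction genes gave 7 of 15 higher, with the claudins Cldn8 27.8-fold, Cldn2 25.3-fold, Cldn4 10.54-fold and Cldn6 5.54-fold. Keratin and desmosome genes gave 6 of 10 (Dsg2 3.09-fold, Dsp 3.06-fold, Jup 2.96-fold and Krt23 2.73-fold). Transport and cilium genes gave 8 of 12 (the polycystic disease gene Pkhd1 5.33-fold, Bicc1 3.61-fold, the sodium pump subunit Atp1b1 3.36-fold and the glucose transporter Slc5a1 3.31-fold). Secreted genes gave 5 of 10, with the mucin Muc1 17.5-fold, the protease Mmp7 8.85-fold and Spp1 (osteopontin) 5.51-fold higher, and the immunoglobulin receptor Pigr 3.90-fold lower.

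Between stages the same lists gave 9 higher and 14 lower of 59 measured genes in the class as defined (median log2 -0.19, all genes -0.13). Of all measured genes 10.1% were higher and 14.8% lower. In barcodes with Apoa1 the lists gave 16 higher and 8 lower of 57 (median 0.41, all genes -0.05), against 12.0% and 12.6% of all genes. The adhesion and surface list had 6 of 11 higher there, with a median of 1.76. In the class as defined, macroscopic barcodes had more Hes1 (3.52-fold), more of the bile acid transporter Slc10a2 (13.9-fold), Pkp2 (2.58-fold), Lcn2 (2.54-fold), Cldn1 (2.01-fold), Tjp3 (1.71-fold) and Pigr (1.68-fold). They had less Krt23 (10.9-fold), Pkhd1 (5.58-fold), Sox4 (5.44-fold), Onecut2 (3.45-fold), Ocln (3.22-fold), Dsp (2.97-fold), Cd24a (2.61-fold), Spp1 (2.05-fold), Cd9 (2.004-fold), Bicc1 (1.84-fold) and Spint2 (1.43-fold).

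With Apoa1, Hes1 was 6.76-fold and Slc10a2 19.9-fold higher, while Krt23 was 8.28-fold, Sox4 2.65-fold and Onecut2 2.46-fold lower. Spp1 turned to 1.74-fold higher, Spint2 was within counting error (1.03-fold lower, 0.868 to 1.23), and Cd24a, Ocln and Pkhd1 were too low to be measured, with Cd24a at 0 in the early barcodes. In macroscopic barcodes with little Malat1, 1 list gene was higher and 41 of 56 were lower than in those with Malat1 (median log2 -2.35, all genes -0.81). Of all measured genes 1.66% were higher and 46.2% lower there. Duct over Kupffer barcodes, 66 of 71 list genes were higher and 2 lower, against 37.8% and 15.6% of all genes.

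Genes were ranked by how closely their pattern over classes followed that of Krt19, Krt8, Clu and Tff3. The measure was Pearson's r of log2(CPM + 10) over the 7 classes of at least 20 barcodes, as a description over classes that share 2 libraries. Nearest to Krt19 were Efemp1, Pdzk1ip1, Capsl, Nipal2 and Epdr1 (r 0.9996 for Efemp1). Nearest to Krt8 were Idi1, Aldh7a1, Stap2, Pacsin3 and Smyd2 (r 0.99 for Idi1), and nearest to Clu were Polr1c, Fbxo22, Pgpep1, Tm4sf4 and Me1 (r 0.99 for Polr1c). Nearest to Tff3 were Hspe1, Lsm5, BC049987, Tmem258 and Cox17 (r 0.99 for Hspe1). A high r does not mean like levels or like folds. Polr1c was at 52.3 CPM in duct, 40.8 in macroscopic hepatocyte and 42.3 in early hepatocyte barcodes. Clu was at 19678, 2346 and 5308 CPM in the same order.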

How the data were processed

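Single-cell RNA was measured in 2 libraries, 1 per stage. What the authors deposited is a UMI count for each gene in each barcode, without normalization. Cell Ranger 3.0.2 made these counts, per the file headers. The submitters' processing notes add mm10 and Seurat 2.3.0 without saying what Seurat did. No source used here gives the annotation behind the counts. UMIs were summed by class and scaled to CPM with Python 3.11.15 (numpy 2.4.6, scipy 1.17.1, pandas 2.3.3). Medians of 2946 and 14223 UMIs per barcode set the precision. Where a class had 0 UMIs, the limit was 3 counts over its sum. Ratios and their intervals were tested on simulated sums, and the class rules were not. No doublet caller was run. Thinning drew 1000 or 5000 UMIs per barcode without replacement. The 10 genes and all lists were chosen with earlier results of these data known. List genes were named by the size of their ratio, up to 4 per list for duct over hepatocyte and up to 3 between stages, with at least 50 CPM in 1 class. Alternatives changed the Alb, Malat1, duct and Kupffer limits, the filters, depth and scaling. The split by Apoa1 was added after seeing the data. Of the 10 genes 6 were in the RefSeq promoter table.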

Additional observations from a re-analysis of the deposited data

Results flagged for a closer look

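Members of the set were found in macroscopic barcodes that met no class rule, 131 barcodes with at least 1000 UMIs that the comparisons did not use. There Krt18 was at 559.896 CPM (56 barcodes), Krt8 at 206.189 CPM (44 barcodes), Tff3 at 164.84 CPM (36 barcodes) and Clu at 113.432 CPM (50 barcodes), above the level of 3 UMIs (1.68 CPM). In the 521 early barcodes of no class the levels were 0.727 CPM for Krt18, 2.18 for Krt8, 0 for Tff3 and 7.99 for Clu. The 52 of these macroscopic barcodes with little Malat1 (median 6058.5 UMIs) had 1807 CPM of Krt18, 664 of Krt8 and 539 of Tff3, with Alb at 1262 CPM and Apoa1 at 1389 CPM. The 79 with Malat1 had 44.996, 17.4 and 10.3 CPM of the same 3 genes. Over the 97 barcodes with at least 5000 UMIs, Spearman's rank correlation of thinned counts was 0.77 for Krt8 with Tff3 and 0.76 for Krt8 with Krt18. What these barcodes are was not tested.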

How the results depend on the processing

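Between the stages, the number of members at least 2-fold higher was 1, and became 3 with Alb at least 1%, 2 over all hepatocyte barcodes whatever their Malat1 and 4 in barcodes with Apoa1. The number lower was 4, and became 1 with Alb at least 1%, 2 after thinning to 1000 UMIs and 1 with Apoa1. Clu reversed, from a log2 fold of -1.18 to 0.030 with Alb at least 1% and 0.24 with Apoa1. Duct over hepatocyte, 9 higher became 5 with an Alb limit of 0.25%, and 0 lower became 1 without the filter on low counts. In barcodes with little Malat1, 0 higher became 1 when barcodes over 25% mitochondrial were left out and 4 under median-of-ratios scaling. There 2 lower became 1 after thinning, 5 without the filter and 0 under median-of-ratios scaling. That scaling took a log2 shift of -0.79 out of every gene alike. The share of all genes called can move with each setting and is not given here for each. These changes in count are therefore not read as results about the members. Members found in at least 50% of barcodes went from 9 to 4 in duct and from 7 to 2 in macroscopic hepatocyte barcodes after thinning, and median members per barcode from 9 to 5 and from 7 to 2. The duct lists between stages went from 9 to 16 higher and from 14 to 8 lower with Apoa1. Between stages Krt8, Sox9 and Cldn7, all under 2-fold, turned lower with an Alb limit of 0.25% (log2 -0.54, -0.53 and -0.37), as did Krt8 and Sox9 with equal weight per barcode and after thinning, and Sox9 whatever the Malat1. Of the counts and medians 91 stayed within 1.5 times their value and 19 moved. A value of a single gene stayed where it lay inside its main interval for counting error. It was called reversed only where its main fold was at least 2. By these rules 288 stayed, 138 moved and 2 reversed. Epcam between stages, under 2-fold in the class as defined, went from a log2 fold of -0.87 to 4.04 with Apoa1 and counts as moved. No paired analysis was possible because each stage has 1 library and the labels give no replicate numbers. For the same reason no replicate could be left out. Spread between animals is unknown, and the 45 macroscopic barcodes limit what can be read from single barcodes.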

Other observations

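Of the early hepatocyte barcodes with Apoa1, 40 of 46 also had at least 2 UMIs of Cldn3, Plet1 and Dcdc2a together (median 6), the genes of the duct rule. In macroscopic hepatocyte barcodes 38 of 45 did (median 19). Depth differed between these sets (median 18193 early and 107248 macroscopic UMIs per barcode), so these UMI numbers are not compared between stages. In the full early hepatocyte class, which includes the 17 barcodes without Apoa1, Cldn3 was at 383 CPM, in 58 of 63 barcodes. In the macroscopic class it was at 260 CPM, in 40 of 45. Plet1 was at 93.1 CPM early and 18.1 CPM macroscopic. The 4 early hepatocyte barcodes with little Malat1 had a median of 93.5% mitochondrial UMIs and, of the 10 genes, only Clu (7 UMIs).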
